A study of Mus musculus with 2 samples.

Results

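VEGF and angiopoietin signalling is represented here by 10 genes of the 32285 in the deposited table, chosen by their symbols. They are the ligand genes *Vegfa*, *Vegfc*, *Vegfd*, *Angpt1* and *Angpt2* and the receptor genes *Kdr*, *Flt1*, *Flt4*, *Tek* and *Tie1*. All 10 were found in the table, and each had at least 122 UMIs (unique molecular identifiers, a count of captured RNA molecules) in the nuclei kept. The nuclei came from whole testes of mouse embryos at E14.5, from a cross of homozygous *Nr5a1-cre* mice with homozygous *Rosa-tdTomato* females, so all nuclei came from embryos bred to carry both the Cre driver and the reporter, and there was no other genotype, treatment or age to compare. *Nr5a1-cre* is active in the somatic lineages of the gonad, and no source used here gives the number of embryos in the pool. The 10x multiome assay read RNA and open chromatin (ATAC, in which a transposase cuts accessible DNA) from the same nuclei, with 1 library of each kind, and all 9833 barcodes were in both. The question asked of these 10 genes was which classes of testis nuclei held RNA for the ligands and which held RNA for the receptors.

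As background, VEGF ligands are secreted dimers that bind receptor tyrosine kinases on endothelial cells and drive vessel growth, and the form encoded by *Vegfa* is the main signal for blood vessels. The receptor encoded by *Kdr* carries most of that signal, the product of *Flt1* binds the same ligand tightly and can hold it away, and the product of *Flt4* is the receptor for the ligands encoded by *Vegfc* and *Vegfd* and is known for lymphatic growth. Angiopoietins bind the receptor encoded by *Tek*, with the product of *Angpt1* activating it and that of *Angpt2* often opposing it, while the product of *Tie1* is a partner receptor that modulates the response. In the fetal testis, endothelial cells migrate in from the neighbouring mesonephros and build a vessel system that lies between the cords.

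Of 9833 barcodes in the table, 7667 passed the quality filters and 7197 were kept after 470 probable doublets were removed. The kept nuclei held 77166216 UMIs, with a median of 7949 per nucleus and a median of 1721 unique fragments at ATAC peaks. Clusters were made with the 10 genes, the related genes listed below and the 103 peaks at the 10 genes held out, and each was named from marker genes as "X-like". They gave 11 named classes from 47 to 2552 nuclei, and 1 cluster of 83 nuclei stayed unnamed and is called by its leading gene, *Pax8*, a transcription factor gene of kidney and genital duct epithelium. The paper classed its own *Pax8*-positive cluster as supporting-like cells, and whether the unnamed cluster holds the same nuclei was not tested.

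The endothelial-like class held 95 nuclei, which is 1.32% of those kept (95% exact interval 1.07 to 1.61). The summed level of its 8 markers was 1495 UMIs per 1000000 UMIs (CPM) there and from 28.1 to 280 CPM in the other classes. The highest of the others was the mesonephric mesenchyme-like class, where *Emcn* alone was at 253 CPM. All 8 markers were detected in the endothelial-like class, although *Sox18* had only 2 UMIs. Of its nuclei, 6 had over 50000 UMIs, the largest 348881, and they held 997930 of the class's 2141941 UMIs. Of the 95 nuclei, 35 were also over the doublet caller's own threshold, compared with 244 of the 989 germ-like and 144 of the 2552 progenitor-like nuclei. Endothelial-like levels are therefore given for all 95 nuclei. Those of the receptor and ligand genes are also drawn for the 89 nuclei of at most 50000 UMIs, and the text gives that second level only where stated.

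**Figure D1:**
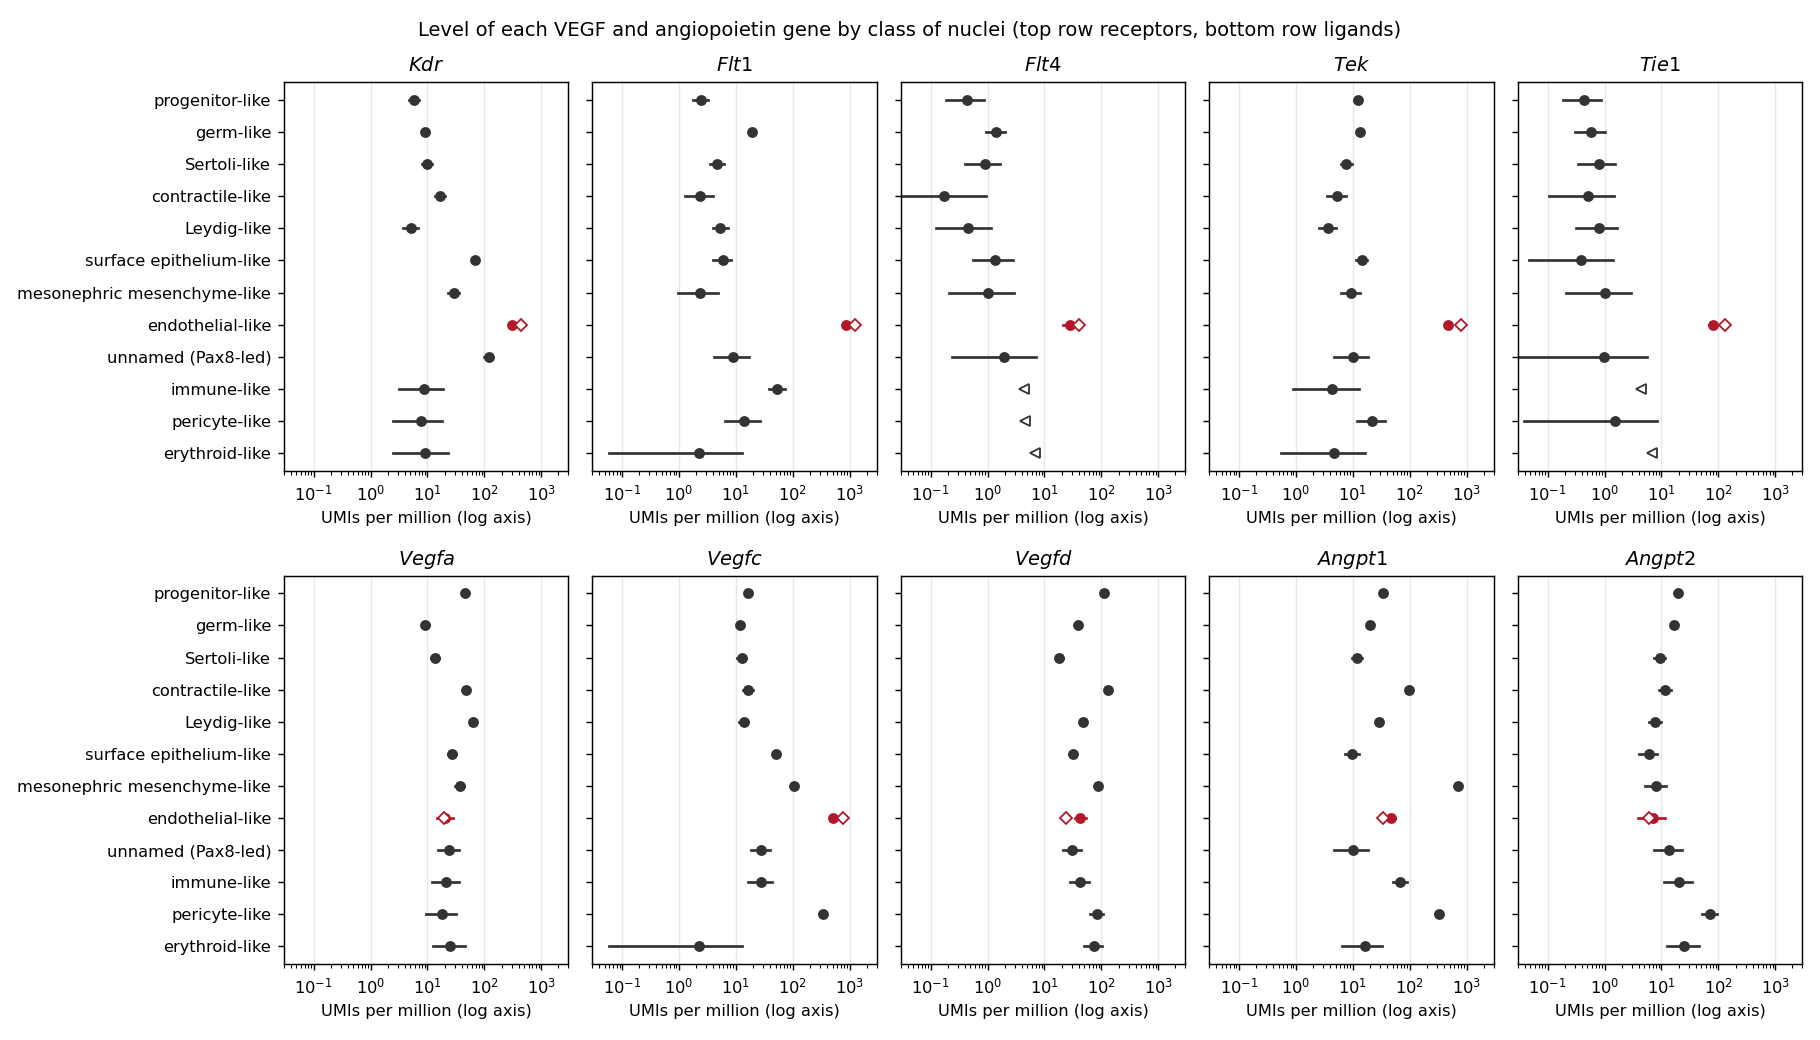
Level of each gene in CPM (log axis) in the 11 named classes and the unnamed *Pax8*-led cluster, receptors in the top row and ligands in the bottom row. Points are levels with exact 95% Poisson intervals, intervals reaching below the axis are clipped, open triangles mark classes with 0 UMIs at the level of 3 counts, and open diamonds give the endothelial-like level in the 89 nuclei of at most 50000 UMIs. Endothelial-like nuclei, in red, led for all 5 receptors and for *Vegfc*.

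The promoter and peak sequences that bear on the results are shown before the values. For *Flt1*, *Kdr* and *Vegfc* they are the RefSeq promoter windows of build GRCm38.p6, each from 250 bases before to 50 bases after the RefSeq start. That start can differ from the gene start used for the promoter peaks. The *Vegfc* window ends before its gene start at chr8:54077606. *Flt1* is shown as the receptor whose promoter peak differed most between endothelial-like and other nuclei. *Kdr* and *Vegfc* are shown because their promoters did not follow their RNA. The last sequence is the central 300 bases of the peak near *Kdr* with the largest ratio of endothelial-like to other nuclei. Capitals mark motifs found on either strand, namely the GC box (GGGCGG), the cAMP response element (TGACGTCA), the TATA box (TATAAA), the core of hypoxia response elements (ACGTG) and the ETS motifs CGGAAG and AGGAAG, ETS being a transcription factor family that includes the endothelial marker *Erg*. None of these motifs overlapped another in the sequences shown.
*Flt1* promoter, chr5:147725962-147726261, minus strand: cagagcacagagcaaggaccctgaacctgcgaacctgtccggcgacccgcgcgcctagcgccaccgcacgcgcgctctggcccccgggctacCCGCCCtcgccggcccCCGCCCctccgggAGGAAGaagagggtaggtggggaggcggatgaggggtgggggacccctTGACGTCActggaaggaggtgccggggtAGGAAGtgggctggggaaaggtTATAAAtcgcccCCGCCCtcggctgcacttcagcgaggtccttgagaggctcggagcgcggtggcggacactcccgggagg
*Kdr* promoter, chr5:75978406-75978705, minus strand: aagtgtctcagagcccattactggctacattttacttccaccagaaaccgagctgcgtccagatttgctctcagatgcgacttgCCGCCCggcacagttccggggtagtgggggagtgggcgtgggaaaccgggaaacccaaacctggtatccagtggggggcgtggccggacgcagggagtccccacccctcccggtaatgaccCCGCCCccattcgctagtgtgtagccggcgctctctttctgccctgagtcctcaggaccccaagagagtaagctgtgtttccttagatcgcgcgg
*Vegfc* promoter, chr8:54077282-54077581, plus strand: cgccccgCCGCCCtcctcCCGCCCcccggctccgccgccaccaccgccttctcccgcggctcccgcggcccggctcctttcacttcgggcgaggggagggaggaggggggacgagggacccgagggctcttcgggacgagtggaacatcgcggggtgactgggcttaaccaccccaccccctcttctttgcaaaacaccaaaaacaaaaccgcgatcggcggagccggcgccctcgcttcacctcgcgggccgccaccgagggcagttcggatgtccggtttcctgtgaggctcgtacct
*Kdr* downstream peak, chr5:75897147-75897446, plus strand: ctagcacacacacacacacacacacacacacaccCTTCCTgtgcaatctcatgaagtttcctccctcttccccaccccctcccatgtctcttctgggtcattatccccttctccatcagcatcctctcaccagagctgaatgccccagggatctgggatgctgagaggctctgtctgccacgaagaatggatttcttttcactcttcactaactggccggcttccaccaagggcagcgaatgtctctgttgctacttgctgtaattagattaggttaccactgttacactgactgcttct

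The *Flt1* window held 3 GC boxes, 2 AGGAAG motifs, a TATA box at bases 220 to 225 and a cAMP response element at bases 170 to 177, counted from 1 at the 5′ end of the window. Of 32851 RefSeq promoter windows of the same length, 35.7% held a GC box, 35.4% AGGAAG, 13.6% the TATA box and 1.79% the cAMP response element, so the last was the rarest of the motifs searched. The *Kdr* and *Vegfc* windows held 2 GC boxes each and none of the other motifs searched. The window near *Kdr* held 1 AGGAAG motif, a motif found in 36.5% of the central 300 bases of 109183 peaks. Among the other members, the *Tie1* window held CGGAAG once (16.9% of promoter windows) and AGGAAG in 2 places, the *Flt4* window held 3 GC boxes, the *Vegfd* window held a TATA box, and the *Tek* window held none of the motifs. *Vegfa* had 2 windows, of which the one at the upstream start held 2 GC boxes and the internal one held a GC box and ACGTG once (19.6% of promoter windows). *Angpt1* and *Angpt2* had no entry among the promoter sequences. These matches describe letters in the sequence and no binding was measured.

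All 5 receptor genes were led by endothelial-like nuclei. Together they gave 3733 of their 6368 UMIs there, which is 58.6% from a class that held 2.78% of all UMIs, and their summed level was 49.6 times that of all other nuclei (95% exact interval 47.2 to 52.2). In the nuclei of at most 50000 UMIs the ratio was 82.3 (77.9 to 87.0). Intervals cover counting error only, since 1 library gives no spread between animals, and no p-value was computed from nuclei. A gene was called higher in endothelial-like nuclei when its level was at least 4 times that of all other nuclei, with at least 20 UMIs over both. Of the 10 members 6 were called higher, the 5 receptors and *Vegfc*, beside a background of 2.48% of the 19418 genes tested, and no member was called lower, beside 12.5% of genes. With doublets removed at the caller's own threshold, *Vegfa*, *Vegfd* and *Angpt1* fell under the ratio of 1/4, at 0.133 (0.0161 to 0.480), 0.127 (0.0346 to 0.326) and 0.140 (0.0381 to 0.359). The share of all genes under 1/4 was not computed for that setting, which held 60 endothelial-like nuclei. These ratios therefore have no background beside them.

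*Flt1* (chr5:147561604-147726011 in mm10, minus strand), whose product binds VEGF tightly, had a level of 851 CPM in endothelial-like nuclei (812 to 891, 1822 UMIs) and 8.56 CPM in all others, a ratio of 99.4 (90.8 to 109). In the 89 nuclei of at most 50000 UMIs the level was 1256 CPM. The immune-like class came next at 53.2 CPM (37.5 to 73.4), followed by germ-like nuclei at 18.9 CPM (17.1 to 20.9). The immune-like level rested on 37 UMIs in 4 of 69 nuclei, and after each nucleus was thinned to 2000 UMIs 1.52% of immune-like nuclei had a *Flt1* UMI, against 2.53% of germ-like and 76.6% of endothelial-like nuclei. The thinned share was lower still in progenitor-like nuclei, at 0.479% (0.248 to 0.835), and in contractile-like nuclei, at 0.393% (0.0812 to 1.15).

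*Tek* (chr4:94739289-94874976, plus strand), the angiopoietin receptor gene, was at 476 CPM in endothelial-like nuclei (447 to 506, 1020 UMIs) and at 787 CPM in those of at most 50000 UMIs. The next class was pericyte-like at 21.4 CPM (11.7 to 35.9), which did not differ beyond counting error from surface epithelium-like nuclei at 14.3 CPM. The ratio of the endothelial-like level to that of all other nuclei was 46.3 (42.2 to 51.0). Thinned to 2000 UMIs, 70.2% of endothelial-like nuclei had a *Tek* UMI and 1.93% of germ-like nuclei.

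*Tie1* (chr4:118471191-118490061, minus strand), the gene of the partner receptor, was the member with the largest ratio, 135 (96.5 to 191), from 173 UMIs in endothelial-like nuclei and 45 in all others. Its level was 80.8 CPM in the endothelial-like class (69.2 to 93.7), and 129 CPM in the nuclei of at most 50000 UMIs. No other class exceeded 1.53 CPM, and the immune-like and erythroid-like classes had 0 UMIs, which allows levels of up to 4.32 and 6.85 CPM at 3 counts. *Flt4* (chr11:49609263-49652739, plus strand), the lymphatic receptor gene, had the fewest UMIs of the members, 59 in endothelial-like nuclei and 63 in all others. Its endothelial-like level was 27.5 CPM (21.0 to 35.5), or 40.2 CPM at 50000 UMIs and under, and its ratio was 32.8 (22.6 to 47.6). In the unnamed *Pax8*-led cluster, which came second, it was at 1.97 CPM from 2 UMIs, and 0 UMIs were found in the immune-like, pericyte-like and erythroid-like classes, which allows up to 4.32, 4.59 and 6.85 CPM.

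*Kdr* (chr5:75932827-75978458, minus strand) was the receptor gene with the largest share of RNA outside the endothelial-like class, which held 37.2% of its UMIs. Its level was 308 CPM in endothelial-like nuclei (285 to 332, 659 UMIs), or 433 CPM in those of at most 50000 UMIs, with a ratio of 20.7 (18.8 to 22.8). The *Pax8*-led cluster was at 119 CPM (99.0 to 143), surface epithelium-like nuclei at 68.1 CPM (61.2 to 75.6) and mesonephric mesenchyme-like nuclei at 29.2 CPM (23.4 to 36.0), and each of these was separated from its neighbours in the order by counting error. These 3 levels were 13.1 times (10.3 to 16.5), 7.48 times (6.25 to 8.97) and 3.20 times (2.46 to 4.15) that of germ-like nuclei. In nuclei of at most 50000 UMIs, which leaves out 44 germ-like nuclei, they were 21.99 times (16.5 to 29.4), 12.5 times (9.90 to 16.0) and 5.24 times (3.85 to 7.12) the germ-like level. After thinning to 2000 UMIs the share of nuclei with a *Kdr* UMI was 16.9% in the *Pax8*-led cluster (9.54 to 26.7), 13.3% in surface epithelium-like nuclei (10.6 to 16.5) and 5.44% in mesonephric mesenchyme-like nuclei, against 0.81% in germ-like nuclei (0.351 to 1.59) and 59.6% in endothelial-like nuclei. Before thinning, at median depths of 10303, 7786 and 6532 UMIs, these 3 shares were 56.6%, 35.0% and 16.5%, against 7.18% in germ-like nuclei at a median of 15614. The endothelial markers did not move with *Kdr* in the *Pax8*-led and surface epithelium-like nuclei, where their summed level was 32.5 CPM (22.4 to 45.7) and 28.1 CPM (23.7 to 33.0), the latter the lowest of all classes. In mesonephric mesenchyme-like nuclei it was 280 CPM, of which *Emcn* made up 253 CPM.

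Within the endothelial-like class the receptors were found together in the same nuclei. Of the 89 nuclei of at most 50000 UMIs, *Flt1* was detected in 85, *Tek* in 85, *Kdr* in 83, *Tie1* in 60 and *Flt4* in 27. At least 3 of the 5 receptors were detected in 84 of them, and all 5 in 17. Pairs were seen about as often as their separate shares give: *Kdr* and *Flt1* together in 89.9%, where the product of the shares is 89.1%, and *Kdr* and *Flt4* together in 28.1%, where it is 28.3%. Among 7037 other nuclei within the same limit, 5775 had none of the 5 receptors and 14 had 3 or more, spread over 7 classes with at most 4 in any of them.

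**Figure D2:**
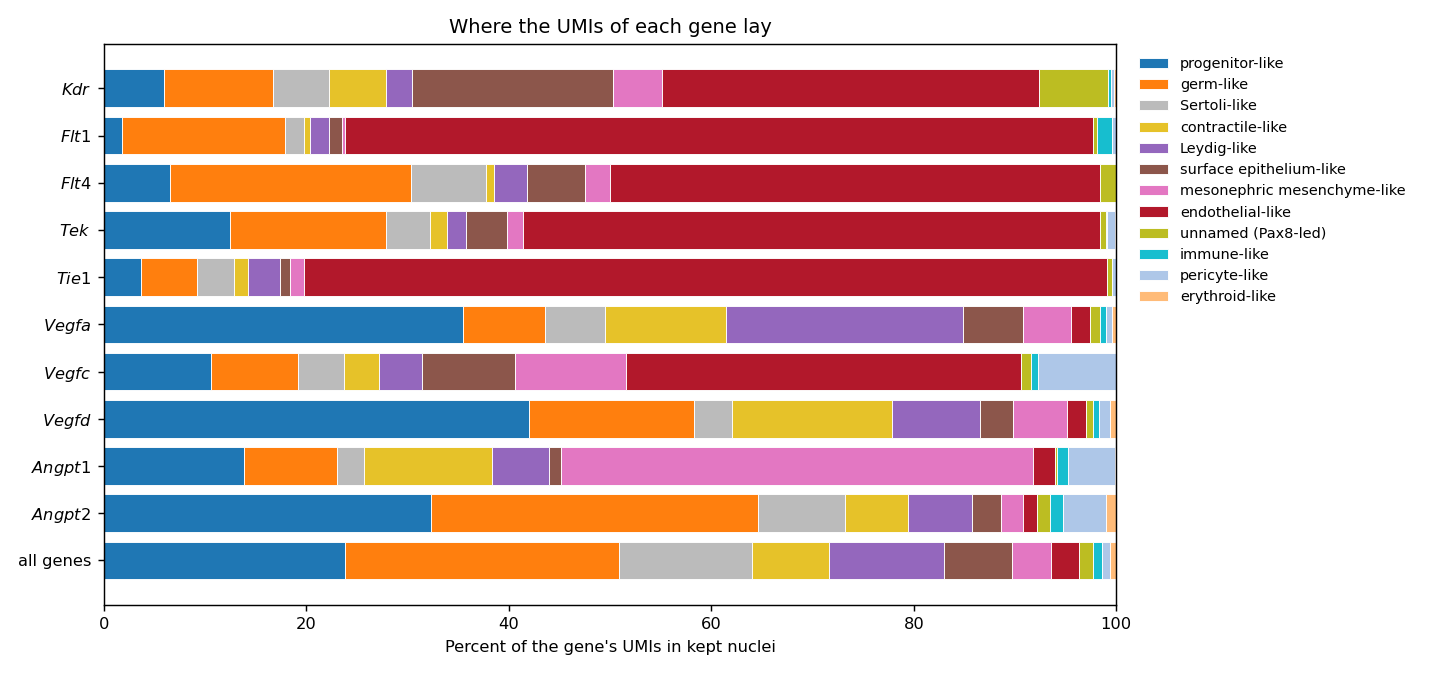
Percent of each gene's UMIs (horizontal axis) that lay in each class, one bar per gene, with the same split for all genes in the lowest bar. Endothelial-like nuclei, in dark red, held 2.78% of all UMIs but between 37.2% and 79.4% of those of each receptor, while the UMIs of *Vegfa*, *Vegfd* and *Angpt2* were spread over the large classes.

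The ligand genes had their highest levels in different classes. *Vegfa* was led by Leydig-like nuclei, *Vegfd* by contractile-like nuclei, *Angpt1* by mesonephric mesenchyme-like nuclei, *Angpt2* by pericyte-like nuclei and *Vegfc* by endothelial-like nuclei. The 5 ligands together were 3.31 times higher in endothelial-like than in other nuclei (3.13 to 3.50), a ratio carried by *Vegfc*, since each of the other 4 was lower there, with ratios from 0.488 to 0.778.

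*Vegfa* (chr17:46016993-46032369, minus strand), the gene of the main blood vessel ligand, was at 62.7 CPM in Leydig-like nuclei (57.6 to 68.1, 551 UMIs), which is 1.38 times its level in progenitor-like nuclei (1.24 to 1.54). Contractile-like nuclei at 47.6 CPM and progenitor-like nuclei at 45.3 CPM followed and did not differ from each other beyond counting error. Mesonephric mesenchyme-like nuclei were at 36.9 CPM and surface epithelium-like nuclei at 27.1 CPM, both separated from the class above in CPM. After thinning to 2000 UMIs their shares with a *Vegfa* UMI were 7.51% (5.09 to 10.6) and 5.73% (3.93 to 8.04). Each of these intervals overlaps that of the class above. The lowest levels were in Sertoli-like nuclei at 13.6 CPM (11.4 to 16.1) and germ-like nuclei at 9.20 CPM (7.95 to 10.6), the 2 classes of the cords. Endothelial-like nuclei were at 20.5 CPM (14.9 to 27.6), 0.668 times all others (0.484 to 0.900). Thinned to 2000 UMIs, 14.6% of Leydig-like nuclei had a *Vegfa* UMI (12.1 to 17.3), against 8.86% of progenitor-like, 1.33% of Sertoli-like and 1.32% of germ-like nuclei. By number of molecules the progenitor-like class was the larger store, with 35.4% of all *Vegfa* UMIs against 23.4% in Leydig-like nuclei, from 2552 and 759 nuclei.

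A finer resolution of clustering gave 3 clusters named progenitor-like, of 1457, 823 and 584 nuclei, which also took in nuclei that were in other classes before, since the class held 2552. The one led by the noncoding gene *9630002D21Rik* had *Vegfa* at 61.4 CPM (54.7 to 68.7), beside Leydig-like nuclei at 61.3 CPM (56.3 to 66.6) in the same clustering. The other clusters of this name were at 43.1 CPM (39.0 to 47.5) for the one led by *Adamts5*, a protease gene, and 42.3 CPM (37.2 to 47.8) for the one led by *Neil3*, a DNA repair gene of dividing cells. After thinning to 2000 UMIs the *Vegfa* shares of these 3 clusters overlapped, at 9.68% (7.70 to 11.97) in the *9630002D21Rik*-led, 8.65% (7.25 to 10.2) in the *Adamts5*-led and 8.23% (6.13 to 10.8) in the *Neil3*-led cluster, against 14.2% (11.9 to 16.9) in Leydig-like nuclei, so no difference between the 3 was detectable at equal depth. By CPM, *Vegfd* was at 95.02 CPM (86.7 to 104) in the *9630002D21Rik*-led, 121 CPM (114 to 128) in the *Adamts5*-led and 110 CPM (102 to 119) in the *Neil3*-led cluster. The first and last of these intervals overlap. After thinning the *Vegfd* shares were 15.3% (12.8 to 18), 19.8% (17.75 to 21.9) and 19.2% (16.1 to 22.7) in the same order, and their intervals overlap.

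*Vegfd* (chrX:164373378-164402650, plus strand), a ligand gene of the lymphatic receptor, was at 131 CPM in contractile-like nuclei (122 to 140, 771 UMIs) and 112 CPM in progenitor-like nuclei (107 to 117, 2052 UMIs), a difference of 1.17 times (1.08 to 1.27). When no doublets were removed, and when nothing was held out of the clustering, progenitor-like nuclei led instead. Mesonephric mesenchyme-like nuclei at 86.8 CPM, pericyte-like nuclei at 82.5 CPM and erythroid-like nuclei at 73.1 CPM formed a group of neighbours that did not differ beyond counting error. Leydig-like nuclei were at 48.2 CPM (43.7 to 53.0), germ-like nuclei at 38.2 CPM (35.6 to 40.9), and Sertoli-like nuclei were lowest at 18.2 CPM (15.7 to 21.1). Thinned to 2000 UMIs, a *Vegfd* UMI was found in 18.5% of progenitor-like (17.0 to 20.1) and 18.1% of contractile-like nuclei (15.4 to 21.0), whose intervals overlap, and in 6.61% of Leydig-like nuclei (4.95 to 8.63), no more than the 7.30% of germ-like nuclei (5.75 to 9.10). *Vegfa* and *Vegfd* thus had different orders within the interstitium, with Leydig-like nuclei first for *Vegfa* and below progenitor-like nuclei for *Vegfd*. Endothelial-like nuclei held *Vegfd* at 43.0 CPM (34.6 to 52.7), or 23.6 CPM in those of at most 50000 UMIs.

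*Vegfc* (chr8:54077606-54187096, plus strand), the other ligand gene of the lymphatic receptor, was at 515 CPM in endothelial-like nuclei (485 to 546, 1102 UMIs), or 771 CPM in the nuclei of at most 50000 UMIs. Pericyte-like nuclei were at 333 CPM (290 to 381, 218 UMIs in 24 of 66 nuclei), mesonephric mesenchyme-like nuclei at 104 CPM (92.4 to 116) and surface epithelium-like nuclei at 50.1 CPM (44.2 to 56.6). All 4 were separated from each other by counting error in CPM, and the remaining classes were at 27.6 CPM or less. Thinned to 2000 UMIs, a *Vegfc* UMI was found in 37.2% of endothelial-like, 27.3% of pericyte-like, 11.9% of mesonephric mesenchyme-like and 0.608% of germ-like nuclei, and the intervals of the endothelial-like (27.5 to 47.8) and pericyte-like shares (17.0 to 39.6) overlap. The endothelial-like level also came mainly from 1 of its finer clusters, with 32 nuclei at 814 CPM, while the other, of 62 nuclei at 124 CPM, was under the pericyte-like level. Of the 95 endothelial-like nuclei 57 had any *Vegfc* UMI, against 30 for *Flt4*, the lymphatic receptor gene, 89 for *Kdr* and 91 for *Flt1*. *Flt4* had the fewest UMIs of the members, which limits how often it was detected.

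*Angpt1* (chr15:42424723-42676977, minus strand), the activating ligand gene, was at 705 CPM in mesonephric mesenchyme-like nuclei (675 to 736, 2103 UMIs), which held 46.6% of its UMIs. Pericyte-like nuclei were at 321 CPM (279 to 368), contractile-like nuclei at 96.7 CPM (89.0 to 105) and immune-like nuclei at 67.6 CPM (49.7 to 89.9), each separated from the next. Thinned to 2000 UMIs, 53.1% of mesonephric mesenchyme-like (48.0 to 58.2) and 39.4% of pericyte-like nuclei (27.6 to 52.2) had an *Angpt1* UMI, against 1.52% of germ-like nuclei. The first 2 of these intervals overlap, although the levels in CPM were separated. The thinned shares of contractile-like nuclei, 11.8% (9.59 to 14.3), and immune-like nuclei, 9.09% (3.41 to 18.7), overlap as well. Progenitor-like nuclei were at 33.9 CPM and Leydig-like nuclei at 28.8 CPM, and the low end held Sertoli-like nuclei at 11.8 CPM (9.82 to 14.2), the *Pax8*-led cluster at 9.86 CPM (4.73 to 18.1) and surface epithelium-like nuclei at 9.68 CPM (7.18 to 12.8), whose intervals overlap. Surface epithelium-like nuclei were low in this ligand gene and second among the named classes for *Kdr*.

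*Angpt2* (chr8:18690263-18741562, minus strand), the gene of the opposing ligand, was at 70.3 CPM in pericyte-like nuclei (51.5 to 93.8, 46 UMIs in 25 of 66 nuclei). This was 2.80 times the next class, erythroid-like nuclei (1.43 to 5.995), and 10.0 times endothelial-like nuclei (5.51 to 19.4), where the level was 7.003 CPM (3.92 to 11.6) from 15 UMIs. The following classes, immune-like, progenitor-like and germ-like, lay from 16.9 to 20.1 CPM and did not differ from their neighbours. After thinning, 6.06% of pericyte-like nuclei had an *Angpt2* UMI (1.68 to 14.8), against 3.44% of germ-like nuclei (2.40 to 4.78), and these intervals overlap. Pericyte-like nuclei were thus the one class that ranked first or second for *Vegfc*, *Angpt1* and *Angpt2*, while their *Vegfa* level of 18.3 CPM was among the low ones.

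The finer resolution gave 2 endothelial-like clusters, and the members were compared between them. One cluster of 62 nuclei was led by *Klhl4* and one of 32 nuclei by *Prex2*, at median depths of 8956 and 9720 UMIs. *Vegfc* was at 814 CPM in the *Prex2*-led and 124 CPM in the *Klhl4*-led cluster, a ratio of 6.58 (5.42 to 8.06), and *Tek* was at 217 and 821 CPM, a ratio of 0.265 (0.229 to 0.305). Of 9 members with enough UMIs *Vegfc* alone passed a ratio of 4 in this comparison, beside 1.04% of the 9535 genes tested, and no member was under 1/4, beside 0.996%. The *Prex2*-led cluster held 4 of the nuclei over 50000 UMIs and the *Klhl4*-led cluster 2, so each value was also taken without them.

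Without those nuclei *Vegfc* was at 2003 CPM in the *Prex2*-led and 140 CPM in the *Klhl4*-led cluster, a ratio of 14.3. It was found in all 28 *Prex2*-led nuclei, from 2.47 to 63.0 UMIs per 10000 of the nucleus with a median of 21.8, and in 23 of 60 *Klhl4*-led nuclei, with a median of 0 and a highest value of 25.2. The groups overlapped in range but their medians were far apart. *Tek* ran the other way, with medians of 4.27 per 10000 in the *Prex2*-led and 10.3 in the *Klhl4*-led nuclei and a ratio of 0.586, against 0.265 in all nuclei, so the difference was smaller once the deepest nuclei were left out. *Kdr* kept its direction, with medians of 3.19 and 5.43 per 10000 and a ratio of 0.719 against 0.478 in all nuclei. *Flt1* and *Tie1* did not keep theirs. *Flt1* was at 691 CPM in the *Prex2*-led and 1069 CPM in the *Klhl4*-led cluster over all nuclei, but at 1431 and 1181 CPM in nuclei of at most 50000 UMIs, and *Tie1* moved from a ratio of 0.655 (0.480 to 0.893) to 1.30, with an interval from 0.917 that includes 1. *Vegfa* had 27 and 17 UMIs in the *Prex2*-led and *Klhl4*-led clusters. Its ratio went from 1.21 (0.636 to 2.37) to 2.80, with an interval from 1.11. The second ratio rested on 13 UMIs in 7 of 28 *Prex2*-led and 9 UMIs in 8 of 60 *Klhl4*-led nuclei. After thinning, 0 of 32 *Prex2*-led (0 to 10.89%) and 2 of 61 *Klhl4*-led nuclei (0.3996 to 11.35%) had a *Vegfa* UMI. These intervals overlap, so no difference in *Vegfa* between the clusters was detectable at equal depth.

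**Figure D3:**
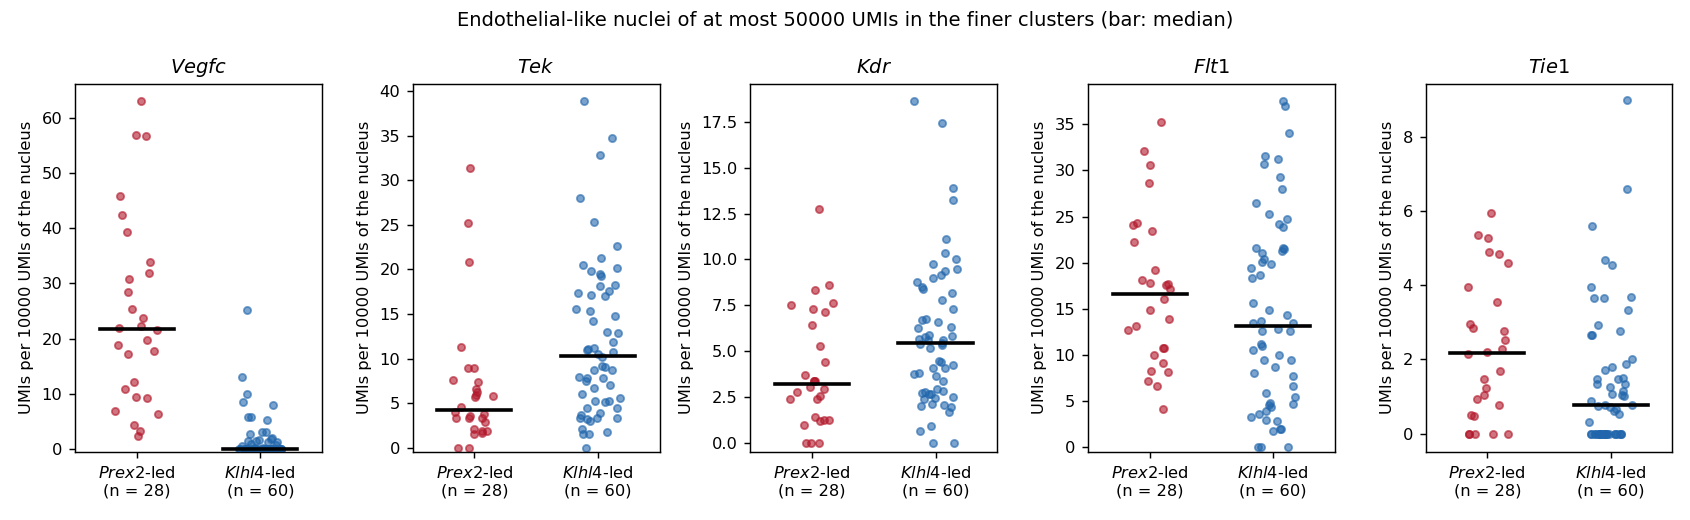
UMIs of 5 members per 10000 UMIs of the nucleus (vertical axis, scaled for each gene) in the *Prex2*-led and *Klhl4*-led endothelial-like clusters, one point per nucleus of at most 50000 UMIs, with bars at the medians. *Vegfc* lies above 0 in all 28 *Prex2*-led nuclei and in 23 of 60 *Klhl4*-led nuclei, and *Tek* has the higher median in the *Klhl4*-led nuclei.

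Several of the genes known for arteries and veins, which were held out of the clustering too, also differed between these clusters. Of the 7 arterial genes 6 had enough UMIs, and 4 passed a ratio of 4 toward the *Prex2*-led cluster, *Bmx* (a kinase gene, 15.1 times), *Hey1* (a Notch target gene, 12.95 times), *Unc5b* (a guidance receptor gene, 6.68 times) and *Gja5*, the gene of an arterial gap junction protein. *Gja5* had 247 UMIs in the *Prex2*-led and 0 in the *Klhl4*-led cluster, which is at least 62.7-fold higher when 3 counts are taken for the cluster at 0. Over all genes, 1.04% of the 9535 tested passed toward the *Prex2*-led cluster and 0.996% toward the *Klhl4*-led cluster. Without the nuclei over 50000 UMIs all 6 arterial genes passed, and the share over all genes was not computed for that setting. Of the 4 venous genes *Nrp2* and *Aplnr* passed toward the *Klhl4*-led cluster, with ratios of 0.0430 and 0.0188, whereas *Nr2f2*, at 0.685, and *Ephb4*, at 0.538, did not pass. *Nrp2* encodes a co-receptor for the *Vegfc* ligand, so the RNA of that co-receptor and of *Vegfc* lay mostly in different clusters. Of 11 tip, stalk and junction genes with enough UMIs, 1 passed toward the *Prex2*-led cluster, the Notch ligand gene *Dll4*, at 4.09. In this list 2 passed toward the *Klhl4*-led cluster, *Aplnr*, also listed as venous, and *Plvap*, a gene of fenestrated vessels, at 0.0305. The tip gene *Esm1* had a ratio of 3.17 over all nuclei and 0.968 in those of at most 50000 UMIs, and *Apln* had too few UMIs. Of 4 lymphatic genes with enough UMIs 1 passed, *Mmrn1*, toward the *Klhl4*-led cluster at 0.0141. The endothelial marker *Emcn*, which did enter the clustering, was at 79.3 and 1220 CPM in the *Prex2*-led and *Klhl4*-led clusters. *Pecam1* and *Cdh5* differed less, with ratios of 0.752 and 0.796 over all nuclei. In nuclei of at most 50000 UMIs these 2 ratios turned direction, to 1.32 (1.09 to 1.58) and 1.38 (1.11 to 1.71).

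Other genes of the pathway were taken from fixed lists. Of 6 ligands and co-receptors, 3 passed a ratio of 4 in endothelial-like nuclei, beside 2.48% of the 19418 genes tested. The list median was 3.41, beside 0.856 over all genes tested. *Ptprb*, a phosphatase gene whose product restrains the angiopoietin receptor, was at 488 CPM in endothelial-like nuclei and at most 14.8 CPM elsewhere, a ratio of 131 (115 to 150). *Nrp2* was at 184 CPM, a ratio of 9.38 (8.37 to 10.5). *Nrp1*, a co-receptor gene for the main VEGF ligand, was at 839 CPM in endothelial-like nuclei with a ratio of 6.02 (5.72 to 6.33). Its endothelial-like level was 1101 CPM in nuclei of at most 50000 UMIs. Over all nuclei it was as high in pericyte-like nuclei, at 923 CPM, and reached 655 CPM in the *Pax8*-led cluster and 575 CPM in immune-like nuclei. The *Pax8*-led cluster therefore held RNA of both *Kdr* and its co-receptor *Nrp1*. The ligand genes *Vegfb*, *Pgf* and *Angpt4* did not pass, and *Pgf* was highest in progenitor-like nuclei at 13.4 CPM.

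Of the 12 genes for tip and stalk cells, junctions and vessel wall, 11 passed a ratio of 4, with a median of 36.4, beside 2.48% of all genes tested. *Dll4* had a ratio of 107 (65.7 to 179) and *Nos3*, the endothelial nitric oxide synthase gene, of 106 (72.2 to 159). The exception was *Acvrl1*, at 2.52. *Esm1*, a tip cell gene that VEGF is known to induce, had 31 UMIs in all endothelial-like nuclei, a ratio of 136 (61.0 to 342). In nuclei of at most 50000 UMIs its ratio was 67.3 (23.0 to 200), from 9 UMIs in endothelial-like and 8 in other nuclei, which is under the minimum of 20 for a call, so 10 genes of this list were called there. All 7 arterial genes also passed, with a median of 25.02, and 2 of 4 venous genes, *Nrp2* and *Aplnr*. Of the 5 lymphatic genes with enough UMIs 2 passed, *Mmrn1* at 41.0 (27.3 to 61.8) and *Prox1*, the defining transcription factor gene of lymphatic cells, at 4.10 (2.69 to 6.03) from 29 UMIs. *Lyve1*, a lymphatic receptor gene, had 0 UMIs in endothelial-like nuclei and 26 elsewhere, which allows up to 1.40 CPM at 3 counts, and *Ccl21a*, a lymphatic chemokine gene, had 1 UMI.

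The genes most like each receptor across the 11 named classes were endothelial ones. Likeness was Pearson's r of log2(CPM + 1) over the classes, among 15183 genes with at least 100 UMIs, and is given as a description, since classes share 1 library and 1 depth profile. For *Tie1* the closest were *Sox7* (r = 0.986), *Aplnr* (0.979) and *Cyyr1* (0.972), for *Tek* they were *Cyyr1* (0.971), *Sox7* (0.966) and *Tie1* itself (0.944), and for *Flt4* they were *Gja5* (0.978), *Prnd* (0.976) and *St8sia6* (0.975). *Flt1* was closest to *Afap1l1* (0.960), *Cldn5* (0.958) and *Mecom* (0.957). *Kdr* was closest to *Adgrf5* (0.940), *Thsd7a* (0.913) and *Ptchd1* (0.892), at lower values than the other receptors.

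Among the ligands, *Vegfc* was closest to *Piezo2* (0.945), a mechanosensitive channel gene, *Plcl1* (0.919) and *Gria2* (0.915), and *Angpt1* to *Thbs2* (0.931), *Slitrk6* (0.911) and *Epha3* (0.910). *Vegfa* was closest to *Tatdn3* (0.913), *Kcp* (0.911) and *Arcn1* (0.906), and *Vegfd* to *Drap1* (0.926), *Oaf* (0.881) and *Myl9* (0.860), a contractile gene. For *Angpt2* they were *Asnsd1* (0.908), *6030442K20Rik* (0.897) and *Mcat* (0.874).

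Open chromatin at the promoters followed the RNA less closely. Fragments at promoter peaks, those within 1 kb of the start of the gene, were counted per 1000000 fragments at all peaks (FPM). Endothelial-like nuclei had 220169 such fragments in all, so a promoter was covered by few of them. The 4 receptors with a promoter peak, *Kdr*, *Flt1*, *Flt4* and *Tek*, together had 2.22 times the promoter FPM of other nuclei in endothelial-like nuclei (1.40 to 3.37), and the 5 ligands 0.671 times (0.374 to 1.11).

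At the *Flt1* promoter peak (chr5:147725354-147726262), which contains the whole window shown above, 13 fragments in endothelial-like nuclei gave 59.1 FPM against 12.96 FPM in the other nuclei, a ratio of 4.55 (2.38 to 7.99). This was the one receptor promoter whose interval lay above 1. At the *Kdr* promoter the levels were 31.8 FPM (7 fragments) and 20.1 FPM, a ratio of 1.58 (0.630 to 3.30). It was covered at 29.2 FPM in germ-like and 26.2 FPM in surface epithelium-like nuclei, so its level in the classes did not follow the RNA ratio of 20.7. The promoters of *Flt4* and *Tek* had 2 fragments and 1 fragment in endothelial-like nuclei, with ratios of 0.916 (0.110 to 3.37) and 1.14 (0.0285 to 6.65), and *Tie1* had no peak within 1 kb, so no difference was detectable at this depth.

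Of the ligand promoters, the *Vegfc* peak (chr8:54076926-54077673), which also contains its whole window, had 1 fragment in endothelial-like nuclei and 251 in the others, which is 0.255 times their FPM (0.00644 to 1.44). Its RNA was 22.4 times higher in the same nuclei (20.8 to 24.2). The *Vegfc* promoter was covered in each of the large classes, from 13.5 FPM in Leydig-like to 26.0 FPM in germ-like nuclei. *Vegfa* had 2 promoter peaks, together at 46.5 FPM in germ-like to 89.6 FPM in Leydig-like nuclei among the classes with over 100 fragments there. In endothelial-like nuclei they were together at 49.96 FPM (24.9 to 89.4, 11 fragments), and the *Flt1* promoter peak at 59.1 FPM (31.4 to 101) did not differ from this beyond counting error. Of the peaks at *Vegfa*, the one at chr17:46030574-46031442 had the largest ratio of Leydig-like to all other nuclei, 1.98 (1.47 to 2.63), at 48.2 against 24.3 FPM. Pericyte-like nuclei reached 97.1 FPM at the *Vegfa* promoter (54.3 to 160) from 15 fragments, although their RNA level was low.

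**Figure D4:**
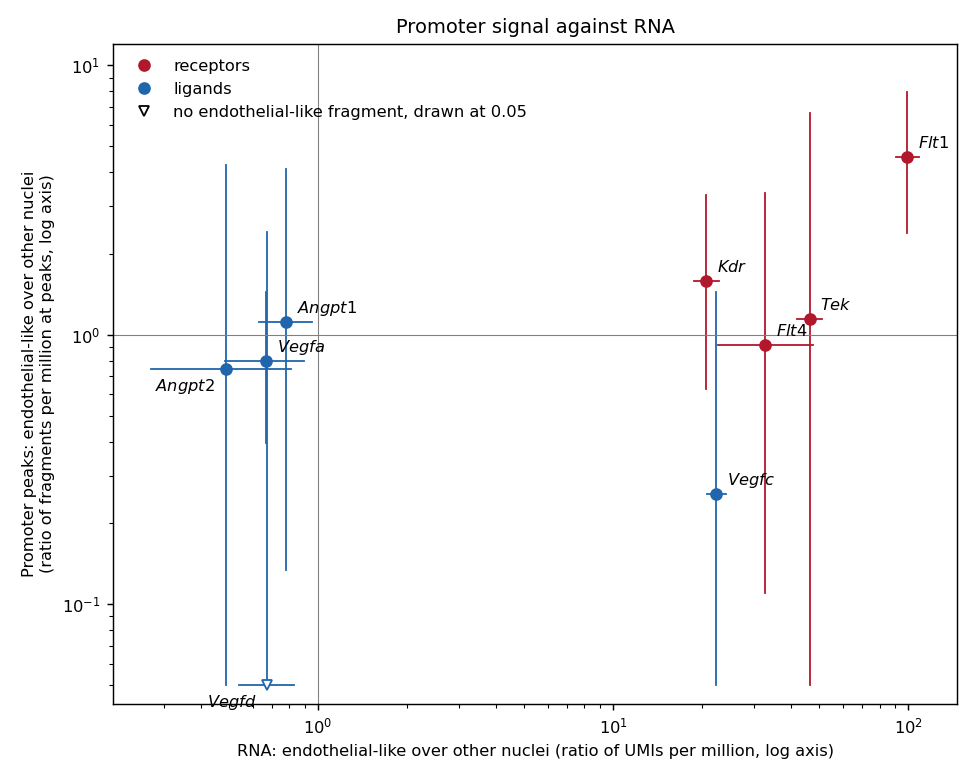
Ratio of promoter fragments (vertical axis) against ratio of UMIs (horizontal axis), endothelial-like over all other nuclei, both on log axes, for the 9 members with a promoter peak, with exact 95% intervals. Receptors are red and ligands blue, *Vegfd*, with 0 endothelial-like fragments, is drawn at 0.05, and intervals that reach below 0.05 are cut there. *Flt1* is the one gene whose promoter interval lies above 1.

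Peaks beyond the promoters were compared in the same way. Of 55 peaks from 50 kb before to 50 kb after the receptor genes, 53 had at least 20 fragments, and 11 of them (20.8%) had a ratio of at least 4, beside 3.07% of the 106817 peaks tested in the whole table. They were 4 of 12 at *Kdr*, 4 of 21 at *Flt1*, 2 of 5 at *Flt4*, 1 of 7 at *Tek* and 0 of 8 at *Tie1*. The *Flt1* promoter peak was 1 of these 11, and the other 10 lay in introns, exons or intergenic sequence. The intervals of 4 of the 11, with 2 or 3 endothelial-like fragments each, included 1. The largest ratio at *Kdr* was at the peak whose centre is shown above, at chr5:75896826-75897767, in intergenic sequence downstream of the gene and 81162 bases from its start. It had 8 fragments in endothelial-like nuclei and 24 in all others, 36.3 against 1.70 FPM, a ratio of 21.4 (8.30 to 49.2). The *Pax8*-led cluster had 3 fragments there, or 17.5 FPM (3.60 to 51.1), and the 7 largest classes had from 0 to 5 fragments each, with levels of at most 3.28 FPM.

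At *Flt1* the peak with the largest ratio lay in an intron 4639 bases from the start, with 5 and 44 fragments and a ratio of 7.29 (2.26 to 18.3). At *Flt4* it also lay in an intron, 4573 bases from the start, at 8.01 (1.55 to 26.4) from 3 and 24 fragments, and at *Tek* it overlapped an exon 88205 bases from the start, at 5.50 (1.08 to 17.4) from 3 and 35 fragments. The *Tie1* locus gave no such peak, its largest ratio being 2.25 (0.266 to 8.51). For the ligands the comparison was of the class that led in RNA with all others. At *Angpt1* an intronic peak 41183 bases from the start had 17 fragments in mesonephric mesenchyme-like nuclei and 58 in the others, a ratio of 5.79 (3.16 to 10.1), and contractile-like nuclei had 16.1 FPM there against 24.6 in mesonephric mesenchyme-like and 3.54 in progenitor-like nuclei. At *Vegfd* a peak in the neighbouring gene *Pir* had a ratio of 2.63 (1.29 to 5.03) for contractile-like nuclei, which were at 8.06 FPM there (4.29 to 13.8), while mesonephric mesenchyme-like nuclei were at 11.6 FPM (5 to 22.8). Among peaks with at least 20 fragments, the intervals of the largest ratios at *Vegfc* and *Angpt2*, 6.75 (0.762 to 28.0) and 3.72 (0.750 to 11.3), included 1. A *Vegfc* peak under that minimum, chr8:54226616-54227539, had 2 fragments in endothelial-like nuclei and 14 in the others, a ratio of 9.16 with an interval that runs from just above 1 to 39.9. At the *Angpt2* peak Leydig-like nuclei were at 20.3 FPM (13 to 30.2) from 24 fragments, beside 19.4 FPM in pericyte-like nuclei from 3 fragments. Each of these peaks was picked as the largest of its locus, so its ratio is a description.

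**Figure D5:**
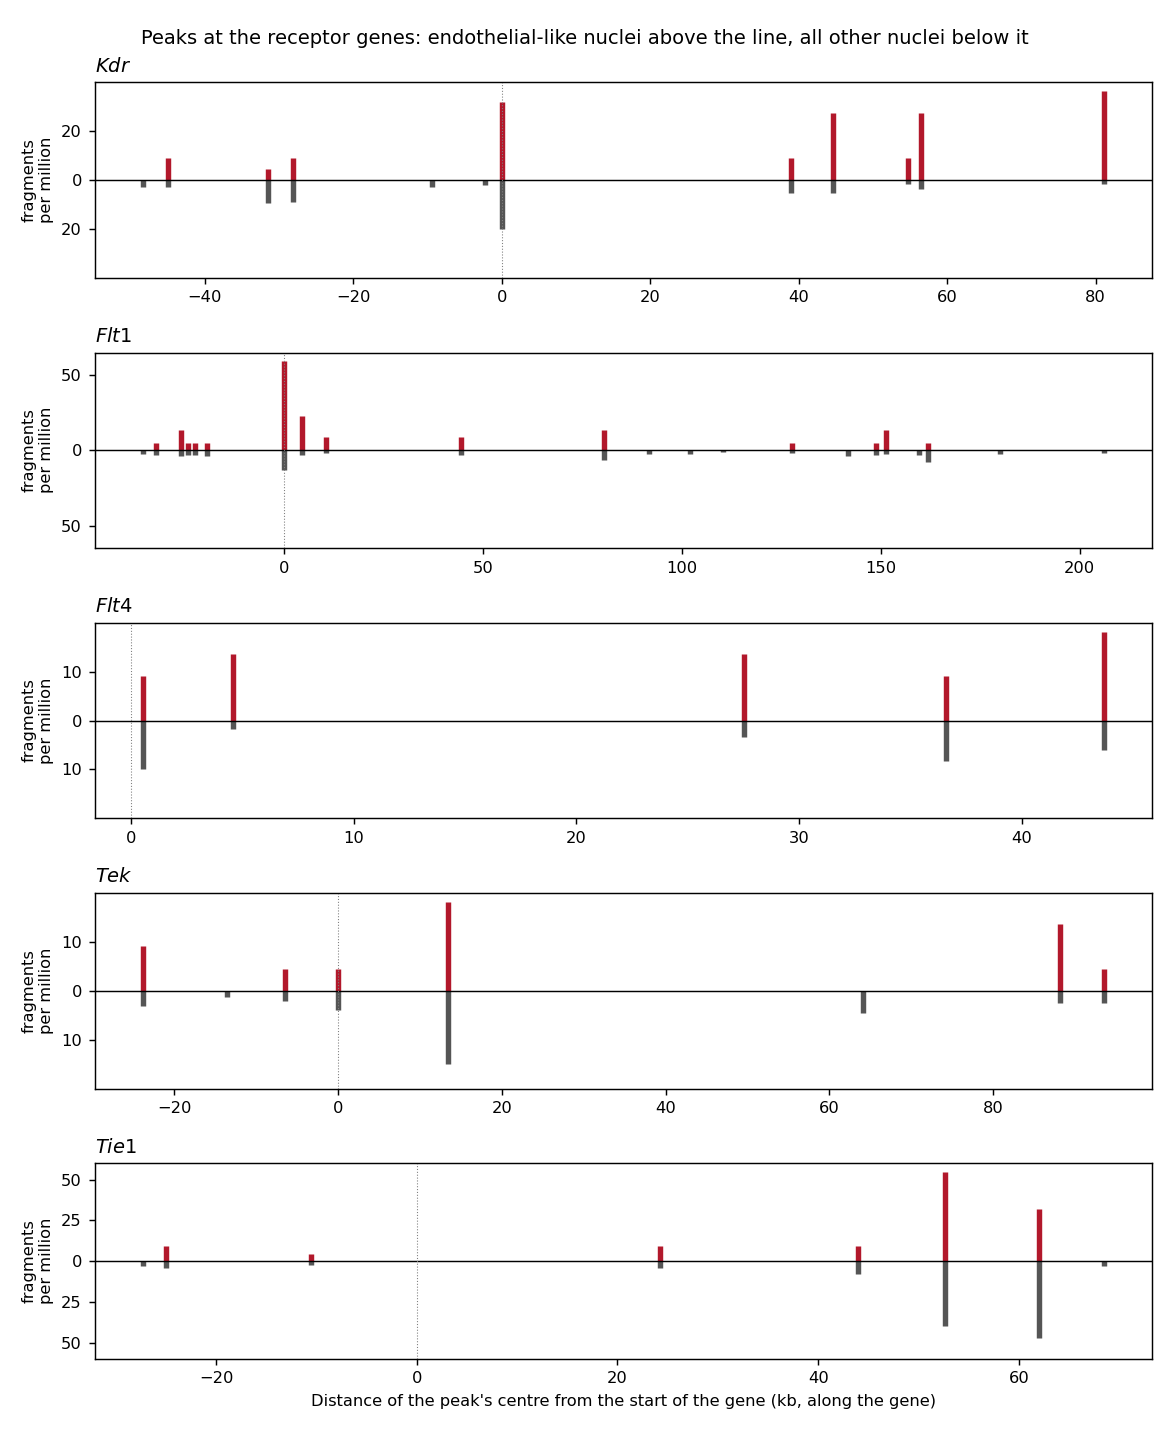
FPM (vertical axis) for each peak at the 5 receptor genes, by distance from the start of the gene in kb along the gene (horizontal axis), with promoter peaks that overlap the start drawn at 0. Red bars above the line are endothelial-like nuclei and dark grey bars below it are all other nuclei. *Kdr* has peaks toward and beyond its 3′ end that are taller in red, *Flt1* is tallest at its start, and *Tie1* has no peak at its start.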

How the data were processed

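Nuclei from whole testes were sequenced by the authors as 10x multiome libraries, processed per the labels with Cell Ranger ARC 2.0.1 on mm10. The deposited matrix holds raw counts (UMIs for genes, transposase cuts for peaks), and the deposited fragment list gives unique fragments with a count of read pairs. Neither was normalized, and ambient RNA was not removed.

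A nucleus needed less than 10% of its UMIs from mitochondrial genes, 10% from ribosomal protein genes and 0.5% from haemoglobin genes, more than 500 genes, more than 20% of fragments in peaks, and between 250 and 25000 such fragments. Scrublet (scanpy 1.11.5) ranked doublets, of which 0.8% for every 1000 nuclei were dropped. Seurat 5.3.0 joined 30 components of 2000 variable genes with 30 of the peaks, without the one that followed depth (r = 0.946), and clustered at a resolution of 0.3, or 0.6 where called finer. Levels have exact Poisson intervals, ratios exact conditional binomial intervals and shares Clopper-Pearson intervals, all at 95%. Nuclei are not replicates, so nothing was tested across samples. Thinning to 2000 UMIs left out from 0 to 8 nuclei of a class (1 endothelial-like, 2 germ-like), and 47 progenitor-like ones. The ratio rule was tested on simulated data. RefSeq sequences (GRCm38.p6, the mm10 assembly) matched 8 of the 10 genes.

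The rule for named genes took all members, listed pathway genes past a ratio of 4 or under 1/4, the 3 genes most like each member and the peak of largest ratio at each. Members and lists were chosen with earlier results of these data known. *Ca9*, a listed hypoxia gene, was not analysed here.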

Additional observations from a re-analysis of the deposited data

How the results depend on the processing

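No ratio of endothelial-like to other nuclei turned direction under the alternatives it was run with, and 6 members were called higher in each one that made calls. For thinned nuclei and for the subtracted germ-like level only the summed ratios were compared, with calls for the latter. At Scrublet's own threshold *Vegfa*, *Vegfd* and *Angpt1* passed the ratio of 1/4, at 0.133, 0.127 and 0.140, and the share over all genes was not computed there. The receptor ratio of 49.6 became 133 at Scrublet's own threshold, 42.6 with stricter minimums (1000 genes and 1000 fragments), 64.2 with classes from RNA alone, 224 with the germ-like level subtracted, 99.9 with nuclei thinned to 2000 UMIs, and 82.3 in nuclei of at most 50000 UMIs, an alternative chosen after seeing the data. The ligand ratio of 3.31 became 5.84, 2.96, 4.43, 5.25, 4.04 and 4.43 in the same order, and 3.10 with no doublet removal. Gene by gene, over the main and the planned sets of classes, the ratio ranged from 19.9 to 42.6 for *Kdr* and from 79.0 to 321 for *Flt1*. It ranged from 28.7 to 83.5 for *Flt4*, 37.2 to 142 for *Tek* and 117 to 476 for *Tie1*. Each of these 5 was highest at Scrublet's own threshold. For the ligands it ranged from 20.25 to 50.6 for *Vegfc*, 0.133 to 0.716 for *Vegfa* and 0.127 to 0.728 for *Vegfd*. It ranged from 0.140 to 0.955 for *Angpt1* and 0.2997 to 0.552 for *Angpt2*. The *Angpt1* interval included 1 with no doublet removal (0.801 to 1.13) and with classes from RNA alone (0.579 to 1.015). That of *Angpt2* included 1 at Scrublet's own threshold (0.0852 to 1.215). The receptor promoter ratio of 2.22 became 3.66 at Scrublet's own threshold, and the other promoter values stayed within their main intervals. The class that led was the same for all 10 members, except that *Vegfd* moved to progenitor-like nuclei with no doublet removal and with nothing held out, which left 9. Classes from chromatin alone gave no endothelial-like cluster, since 69 of the 95 nuclei fell in a mixed cluster of 261, so that alternative has no value. RNA and ATAC were read from the same nuclei, but each assay has 1 library, so no comparison between samples was possible. Depth limits the chromatin values, with 1 or 2 endothelial-like fragments at several promoters.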

Other observations

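The products of oxygen-sensing genes control *Vegfa* in many tissues. Only RNA of these genes was measured here, and a role of oxygen sensing in the *Vegfa* levels was not tested. *Hif1a*, the gene of a hypoxia-inducible factor, was highest in Sertoli-like nuclei at 464 CPM and next in Leydig-like nuclei at 267 CPM. *Egln1*, an oxygen sensor gene, was also highest in Sertoli-like nuclei at 49.3 CPM, where *Vegfa* was at 13.6 CPM. *Arnt* was highest in germ-like nuclei at 209 CPM and next in Leydig-like nuclei at 200 CPM. *Vhl* was highest in immune-like nuclei at 18.7 CPM and *Egln3* in surface epithelium-like nuclei at 27.3 CPM. *Epas1*, the gene of a related factor, was highest in endothelial-like nuclei at 226 CPM, with a ratio of 8.90 to all other nuclei (8.04 to 9.84), and next in pericyte-like nuclei at 108 CPM. It was the one gene of the 6 in this list that passed a ratio of 4. None of the 7 hypoxia target genes in the table passed, beside 2.48% of all genes tested, so that a count of 0 in 7 is not a result about this list. Leydig-like nuclei led for *Pgk1* (27.4 CPM), a glycolysis gene, and *Bnip3* (21.0 CPM), a mitophagy gene, erythroid-like nuclei for *Slc2a1* (119 CPM), a glucose transporter gene, and *Ldha* (41.1 CPM), germ-like nuclei for *Pdk1* (220 CPM), surface epithelium-like nuclei for *Ndrg1* (19.7 CPM) and immune-like nuclei for *Ankrd37* (5.76 CPM).

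Nuclei over 50000 UMIs numbered 71 of 7197, of which 44 were germ-like and 6 endothelial-like. In the endothelial-like class the receptor levels were higher without them, *Flt1* going from 851 to 1256 CPM and *Tie1* from 80.8 to 129 CPM, while *Vegfd* went from 43.0 to 23.6 CPM and *Angpt1* from 45.8 to 34.1 CPM. Whether these nuclei are doublets was not tested.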
